A study of Mus musculus with 6 samples.

Results

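The 10 genes described here encode the core of mitochondrial fatty acid beta-oxidation: the carnitine shuttle (Cpt1a, Slc25a20, Cpt2), the straight-chain acyl-CoA dehydrogenases (Acadvl, Acadl, Acadm, Acads), both subunits of the trifunctional protein (Hadha, Hadhb) and the short-chain 3-hydroxyacyl-CoA dehydrogenase (Hadh). They were chosen by gene symbol, and all 10 were among the 20107 genes of the deposited table and the 14896 that passed the filter on low counts. The samples were livers of 6 male C57BL/6N (Envigo) mice aged 16 weeks, littermates fed ad libitum, with 1 library per sample. From 8 weeks of age, 3 mice had 8 weeks of HFHC feeding, a food rich in fat and calories with fructose in it plus a drink high in fructose (HFHC replicates 1, 2 and 3). The other 3 mice had chow (Chow replicates 7, 8 and 9). All mice were wild type, and the diets' exact composition is not given in the sources used here, so fat, fructose in food and fructose in drink cannot be told apart. Libraries were made from total RNA after removal of ribosomal RNA.

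Mitochondrial beta-oxidation shortens fatty acids in repeated rounds and supplies the liver with acetyl-CoA for the citric acid cycle and for ketone bodies. Long-chain acyl groups enter the matrix as carnitine esters: CPT1A makes the ester at the outer membrane, the carrier encoded by Slc25a20 exchanges it across the inner membrane, and CPT2 turns it back into acyl-CoA. Each round then takes an acyl-CoA dehydrogenase suited to the chain length, a hydratase, a 3-hydroxyacyl-CoA dehydrogenase and a thiolase. CPT1A is inhibited by malonyl-CoA, the product of acetyl-CoA carboxylase, and many genes of the pathway are known targets of the nuclear receptor PPAR alpha.

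The promoters of the genes whose counts rose are shown with 2 for contrast: that of Acadvl, which had the smallest log2 fold change of the 10, and the short stretch between Hadhb and its head-to-head neighbour Hadha. The letters come from RefSeq promoter windows (GRCm38.p6, the assembly of mm10), which run from 250 bases before to 50 after each start and were found for all 10 genes. Only the stretch free of exons annotated in GENCODE M21 is printed, 5′ to 3′ on the gene's strand, and the RefSeq start of Cpt1a lies inside the longer gene that GENCODE annotates. Capitals mark the GC box GGGCGG and the nuclear receptor hexamer AGGTCA, on either strand.
Cpt1a (chr19:3323051-3323284, plus strand): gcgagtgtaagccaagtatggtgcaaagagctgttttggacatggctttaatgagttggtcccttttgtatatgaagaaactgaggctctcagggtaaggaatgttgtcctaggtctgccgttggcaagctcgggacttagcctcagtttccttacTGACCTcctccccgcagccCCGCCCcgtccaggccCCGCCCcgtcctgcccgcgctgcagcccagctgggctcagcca
Slc25a20 (chr9:108661886-108662087, plus strand): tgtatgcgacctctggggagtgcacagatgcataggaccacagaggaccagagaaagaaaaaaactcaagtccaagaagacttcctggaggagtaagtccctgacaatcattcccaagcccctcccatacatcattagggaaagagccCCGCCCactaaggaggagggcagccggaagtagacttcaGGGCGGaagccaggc
Hadh (chr3:131272102-131272351, minus strand): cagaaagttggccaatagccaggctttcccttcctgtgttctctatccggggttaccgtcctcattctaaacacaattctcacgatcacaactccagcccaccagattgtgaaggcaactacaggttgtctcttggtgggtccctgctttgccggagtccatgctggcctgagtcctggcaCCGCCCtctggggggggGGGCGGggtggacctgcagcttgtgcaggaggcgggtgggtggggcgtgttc
Acadvl (chr11:70015412-70015678, minus strand): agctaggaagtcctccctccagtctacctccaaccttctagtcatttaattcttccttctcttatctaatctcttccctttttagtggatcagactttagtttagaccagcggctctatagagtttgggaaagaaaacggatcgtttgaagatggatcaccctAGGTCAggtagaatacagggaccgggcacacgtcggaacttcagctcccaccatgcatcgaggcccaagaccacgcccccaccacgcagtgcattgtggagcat
Hadhb (chr5:30155163-30155247, plus strand, the 85 bases between the annotated Hadha and Hadhb genes): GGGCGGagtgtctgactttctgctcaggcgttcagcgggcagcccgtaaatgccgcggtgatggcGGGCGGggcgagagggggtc

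The GC box was found in the windows of 8 of the 10 genes (not those of Acadvl and Acadm), beside 35.7% of all 32851 promoter windows. The stretch between Hadha and Hadhb is 69.4% G and C and holds 2 GC boxes. The hexamer AGGTCA occurred in 3 windows (Cpt1a, Acadvl, Acadm), beside 16.3% of all windows. A direct repeat of AGGTCA with any 1 base between the copies, the form of site that PPAR alpha with its partner RXR is known to bind, had no match in the 10 windows, nor had the looser repeat of AGGNCA with the same spacing (0.0396% and 0.381% of all windows). TCAAGGTCA, the nuclear respiratory factor element (GCGC, any base, TGCGC) and TATAAA also had none, beside 0.423%, 4.6% and 13.6% of all windows, and CCAAT was found for Cpt1a and Hadh (37.4%). Both strands were searched, each direct repeat or TCAAGGTCA also holds a hexamer match of its kind, and a match or its absence describes these letters only.

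HFHC was compared with Chow to ask how the regimen changes the liver's gene expression. Levels are given as CPM, counts scaled to the TMM-adjusted library size. Log2 fold changes set HFHC against Chow and carry a standard error (SE). A gene rose or fell where the adjusted p of edgeR's quasi-likelihood test (Benjamini-Hochberg over all 14896 genes) was under 0.05. Cpt1a rose by 0.77 ± 0.09, Slc25a20 by 0.48 ± 0.09 and Hadh by 0.42 ± 0.10. That is 3 of 10, or 30%, beside 3.38% of all tested genes called higher, and none of the 10 fell, beside 3.3% called lower. The other 7 did not pass, with log2 fold changes of 0.10 to 0.28, although 7 of the 10 had an unadjusted p under 0.05. All 10 log2 fold changes were positive, with a median of 0.22, beside 49.5% positive and a median of 0.00 over all tested genes. In 8 of the 10 genes every HFHC library lay above every Chow library, beside 13.5% of all tested genes. The 10 genes were chosen with earlier results of these data known, so these shares are description only. In bulk liver, a change in the number of cells of a type and a change in RNA per cell cannot be told apart.

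**Figure D1:**
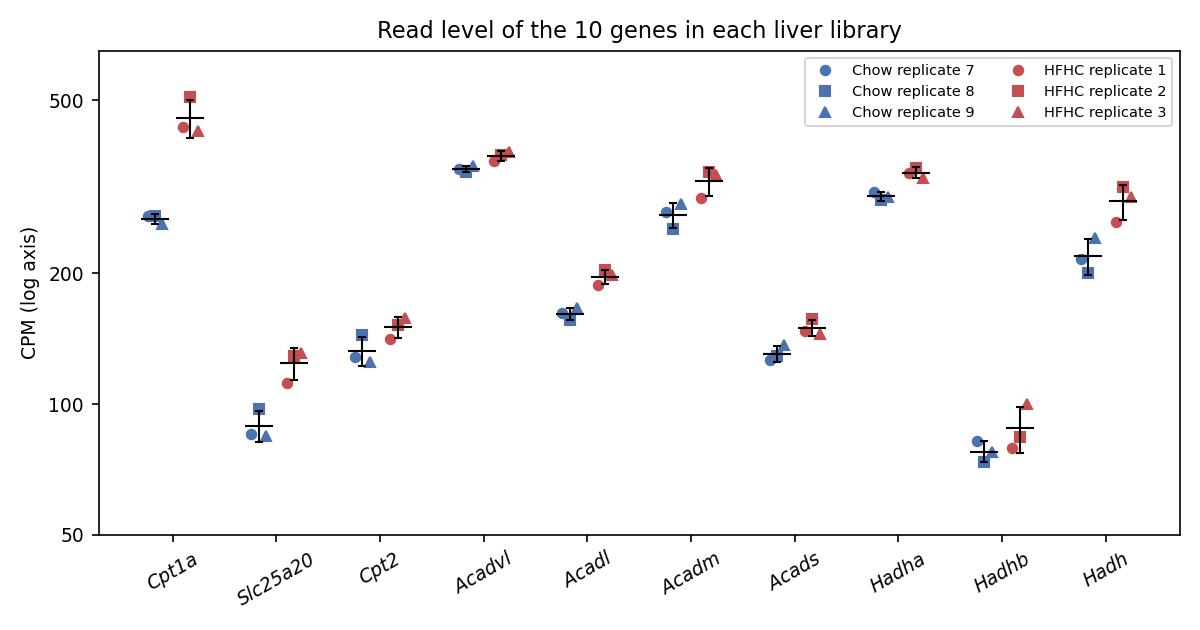
CPM on a log axis of the 10 genes in each of the 6 libraries, Chow in blue and HFHC in red, with a symbol for each replicate and a black bar and whiskers for the mean ± SD (n = 3 per diet). Cpt1a has the widest gap between diets, and the libraries of the diets overlap for Cpt2 and Hadhb.

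The entry step had the largest difference. Cpt1a, on chromosome 19 at 3322334 to 3385733 (plus strand), stood at 433, 508 and 424 CPM in HFHC replicates 1, 2 and 3 and at 271, 271 and 259 CPM in Chow replicates 7, 8 and 9. The 3 Chow livers were close together (SD 6.7 CPM), the HFHC livers were more spread (SD 46.2 CPM) with replicate 2 highest, and the groups were far apart. The fold was 1.7 (95% interval 1.48 to 1.96, adjusted p = 0.002), and it passed in all 6 leave-one-out fits (edgeR adjusted p 0.00386 to 0.012). Cpt1b and Cpt1c, the muscle-type and brain-type forms of the same enzyme, were near the bottom of the measured range in this liver: Cpt1b ranged from 0.939 to 2.54 CPM and Cpt1c from 0.352 to 0.493 CPM over the 6 libraries, and neither differed in the test (adjusted p = 0.935 and 0.919). Another gene annotated on the same strand covers 81.4% of the Cpt1b exons, so those counts are uncertain.

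Slc25a20, the carnitine-acylcarnitine carrier on chromosome 9 at 108662088 to 108684641 (plus strand), stood at 112, 129 and 131 CPM in the HFHC livers and at 85.1, 97.4 and 84.6 CPM in the Chow livers. The groups did not overlap, though Chow replicate 8 was closer to the HFHC livers than the other Chow livers were. The fold was 1.39 (95% interval 1.2 to 1.61, adjusted p = 0.0194). The call was lost without HFHC replicate 2 (0.0669) or 3 (0.0522) and without Chow replicate 7 (0.0894) or 9 (0.0744), with log2 fold changes of 0.43 to 0.45 there.

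Cpt2, the matrix-side transferase on chromosome 4 at 107903981 to 107923610 (minus strand), showed a smaller difference than the other shuttle genes. It stood at 141, 152 and 158 CPM in HFHC and at 128, 144 and 125 CPM in Chow, so Chow replicate 8 lay within the HFHC range. At 0.18 ± 0.09 on the log2 scale it did not pass (95% interval -0.01 to 0.38, adjusted p = 0.244). Cpt1a and Cpt2 were also compared inside each library, where library size cancels. The log2 ratio of Cpt1a to Cpt2 counts was 1.62, 1.74 and 1.43 in the HFHC livers and 1.08, 0.92 and 1.05 in the Chow livers, without overlap and with a difference of 0.58. The exact 2-sided permutation test gave p = 0.1, the smallest it can give for 3 against 3, and 0.3 adjusted over the 3 ratios computed, so this exact test cannot reach the threshold with 3 libraries a diet.

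The 4 acyl-CoA dehydrogenases, which start each round on very-long-, long-, medium- and short-chain substrates, all had small positive log2 fold changes, and none passed. Acadl, the long-chain enzyme on chromosome 1 at 66830839 to 66863277 (minus strand), came closest, at 188, 203 and 198 CPM in HFHC and 162, 156 and 166 CPM in Chow. The groups were apart by more than their spread, at 0.28 ± 0.07 (95% interval 0.11 to 0.45, adjusted p = 0.0552). Acadl passed with DESeq2 (0.0271), upper-quartile factors (0.0401), a minimum of 10 CPM in 3 libraries (0.0338) or the trend on GC content and length taken out (0.0487), and in no leave-one-out fit (0.0924 to 0.172).

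Acadm, the medium-chain enzyme on chromosome 3 at 153922357 to 153944632 (minus strand), stood at 298, 342 and 337 CPM in HFHC and 276, 253 and 289 CPM in Chow. HFHC replicate 1 was only slightly above Chow replicate 9, and the difference of 0.26 ± 0.09 on the log2 scale missed the threshold (95% interval 0.05 to 0.46, adjusted p = 0.13). Acads, the short-chain enzyme on chromosome 5 at 115110299 to 115119346 (minus strand), stood at 147, 157 and 145 CPM in HFHC and 126, 129 and 137 CPM in Chow (0.19 ± 0.08, 95% interval 0.02 to 0.36, adjusted p = 0.167). Its groups did not overlap, with Chow replicate 9 nearest to the HFHC livers.

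Acadvl, the very-long-chain enzyme of the inner membrane on chromosome 11 at 70010183 to 70015411 (minus strand), moved least of the 10. It stood at 362, 375 and 380 CPM in HFHC and 347, 342 and 353 CPM in Chow, without overlap and with 0.10 ± 0.07 as its log2 fold change (95% interval -0.06 to 0.26, adjusted p = 0.473), so its interval leaves out a rise as large as that of Cpt1a. Exons of Dvl2, transcribed from the other strand, lie over 42.9% of the Acadvl exons, and Dvl2 itself ranged from 2.83 to 3.57 CPM. The log2 ratio of Acads to Acadvl counts, the short-chain against the very-long-chain enzyme, was -1.3, -1.26 and -1.39 in HFHC and -1.46, -1.41 and -1.37 in Chow. These values overlapped between the diets (difference 0.09, exact permutation p = 0.2, adjusted 0.3).

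Later steps of each round were carried by the trifunctional protein for long chains and by the enzyme that Hadh encodes for shorter ones. Hadh, on chromosome 3 at 131233419 to 131272101 (minus strand), stood at 263, 316 and 299 CPM in HFHC and 216, 200 and 241 CPM in Chow. Every HFHC liver was above every Chow liver, with HFHC replicate 1 and Chow replicate 9 nearest to each other. The fold was 1.34 (95% interval 1.14 to 1.56, adjusted p = 0.0398). This call was the least stable of the 3: it was lost without HFHC replicate 2 (0.113) or 3 (0.0911), without Chow replicate 7 (0.14), 8 (0.0775) or 9 (0.0512), and with the trend on GC content and length taken out (0.35, adjusted p = 0.0604).

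Hadha, the alpha subunit, lies on chromosome 5 at 30118304 to 30155162 (minus strand). It stood at 341, 350 and 331 CPM in HFHC and 308, 294 and 299 CPM in Chow, 2 tight groups that did not overlap, and at 0.18 ± 0.07 on the log2 scale the difference did not pass (95% interval 0.02 to 0.35, adjusted p = 0.179). Hadhb, the beta subunit with the thiolase activity, starts on the plus strand at 30155248, across the 85 bases printed above, and ends at 30184593. It stood at 79.4, 84.2 and 100 CPM in HFHC and 82.2, 73.5 and 77.6 CPM in Chow. Its diets overlapped, HFHC replicate 3 was well above the other 5 libraries, and 0.18 ± 0.10 on the log2 scale missed the threshold (95% interval -0.05 to 0.40, adjusted p = 0.34). Without HFHC replicate 3 the log2 fold change of Hadhb was 0.07.

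Hadhb has a nearly identical processed pseudogene, an intronless copy inserted elsewhere in the genome. The annotated transcript of Gm13910, on chromosome 2 at 108948806 to 108950233 (mm10, plus strand), matches Hadhb at 99.8% identity over 1428 bases. In the deposited table Gm13910 held 4619, 4951 and 4696 counts in HFHC replicates 1, 2 and 3 and 3894, 3654 and 3706 in Chow replicates 7, 8 and 9, more than Hadhb itself in each of the 6 libraries. Its part of the summed counts was 64.9%, 65.3% and 61.0% in HFHC and 64.3% in each Chow library, so HFHC replicate 3, where Hadhb was highest, also had the lowest part for the pseudogene. The table alone cannot say which of these reads came from Hadhb, and the level of Hadhb is uncertain.

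Summed with Gm13910 and a further copy with almost no counts, Hadhb stood at 226, 243 and 258 CPM in HFHC and 230, 206 and 217 CPM in Chow. The diets still overlapped, and the log2 fold change was 0.15 ± 0.08 (adjusted p = 0.322). The log2 ratio of Hadha to Hadhb counts was 2.1, 2.06 and 1.72 in HFHC and 1.9, 2.0 and 1.95 in Chow (difference 0.01, exact permutation p = 1, also after adjustment). With the copies added to Hadhb the ratio was 0.59, 0.53 and 0.36 in HFHC and 0.42, 0.51 and 0.46 in Chow, and the difference 0.03 (exact permutation p = 0.7). Acadm has a copy as well, Gm5131 on chromosome 8 (93.5% identity over 681 bases), which held 0.9% to 1.4% of the summed counts and left the Acadm log2 fold change at 0.25 (adjusted p = 0.132).

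**Figure D2:**
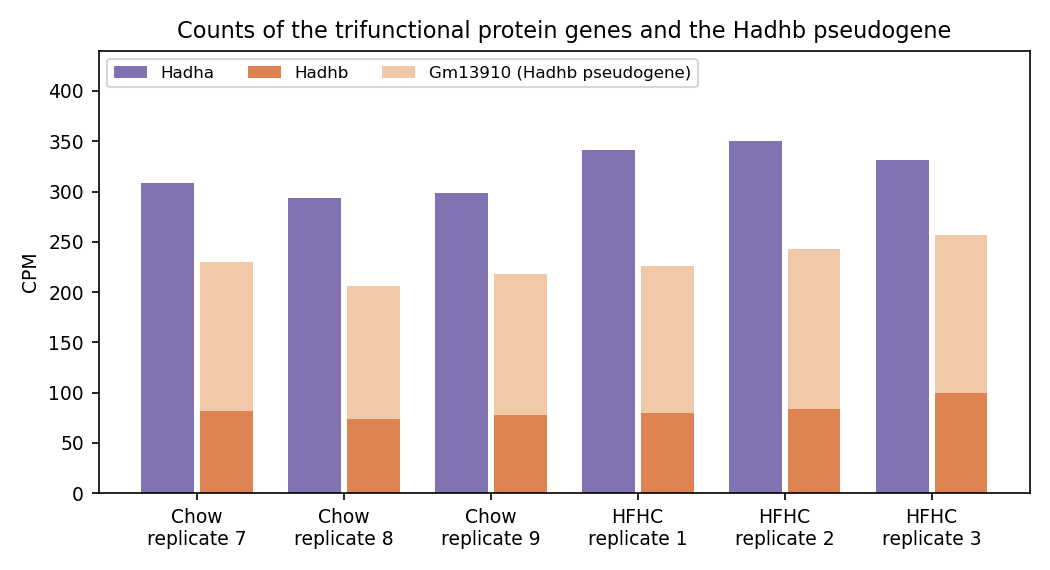
CPM of Hadha (purple bars) and, stacked, of Hadhb and its pseudogene Gm13910 (dark and light orange bars) in each of the 6 libraries. The pseudogene holds 61.0% to 65.3% of each orange stack, and the stacks of the diets overlap, at 226 to 258 CPM in HFHC and 206 to 230 CPM in Chow.

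Levels of different genes were compared per length. Per kilobase of annotated exons the Chow livers ran from Acadvl (129 ± 1.99 CPM per kb, SD, n = 3) through Acadl (80.5), Acadm (69.7), Acads (57.6), Cpt2 (55.4), Hadh (44.0), Cpt1a (35.0), Hadha (34.4) and Slc25a20 (18.4) to Hadhb (11.8). Neighbours that did not differ beyond their ranges over the Chow livers were Acads with Cpt2 and Cpt1a with Hadha. Annotated exons of Hadha, Hadhb, Hadh, Acadm, Cpt1a and Slc25a20 add up to well over the length of the representative transcript, so the same levels were also taken per kilobase of that transcript. There, Acadvl stood first (160 ± 2.47 CPM per kb) and Hadhb last (38.0 ± 2.13), Hadh moved from the sixth to the third place (122 ± 11.4), and Hadhb with its copies added stood at 106 ± 5.84, in the fourth place. Neighbours whose Chow ranges overlapped on that scale, copies apart, were Acadm with Hadh, Hadha with Acads, Cpt1a with Cpt2 and Cpt2 with Slc25a20. Cpt1a took the seventh place in Chow (61.9 ± 1.55) and the fourth in HFHC (105 ± 10.7), where its range overlapped that of Acadl (102 ± 4.02).

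The 10 genes together held 0.236%, 0.261% and 0.25% of counts in the HFHC livers and 0.2%, 0.196% and 0.203% in the Chow livers. HFHC replicate 1 was the lowest HFHC liver for 7 of the 10 genes and replicate 2 the highest for 6. Among the Chow livers replicate 8 was lowest for 6 genes, but it was the highest of the 3 for the carnitine shuttle genes Slc25a20 and Cpt2 and level with replicate 7 for Cpt1a. Measured against the mean pattern of the 10 genes over the 6 libraries, Acadl lay closest, with a root-mean-square difference of 0.023 in log2 CPM, and Cpt1a farthest, with 0.242.

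**Figure D3:**
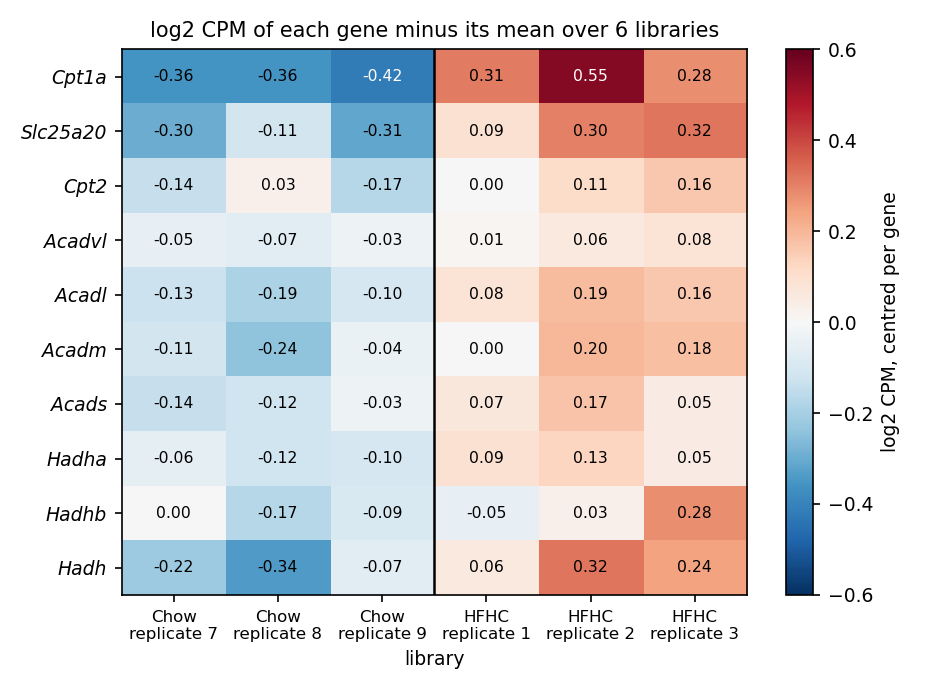
Heat map of log2 CPM minus the gene's mean over the 6 libraries, with genes as rows, libraries as columns and the value written in each cell (red above the mean, blue below it). Cpt1a runs from -0.42 to 0.55, and Chow replicate 8 is the darkest blue Chow cell for Hadh (-0.34) and the only Chow cell above 0 for Cpt2 (0.03).

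Outside the 10, the genes with the most similar pattern over the 6 libraries were Hsd17b4 (root-mean-square difference 0.025), Hsd17b12 (0.026), Borcs7 (0.027), Spns2 (0.027), Slc35f6 (0.027) and Sugct (0.028), taken from 9779 genes with a mean of at least 5 CPM. Hsd17b4 encodes the multifunctional enzyme of peroxisomal beta-oxidation, and Hsd17b12 a reductase of fatty acid elongation. Spns2 alone of these passed (0.32 ± 0.08, adjusted p = 0.0438), a call that no leave-one-out fit kept (0.0673 to 0.147). The other 5 had log2 fold changes of 0.26 to 0.33. All 6 were picked for likeness over these same libraries, so their fold changes follow from the choice and are no separate result.

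Of 15 further genes listed around the matrix steps of beta-oxidation, 4 rose, none fell and 11 did not pass, with a median of 0.17. The list also holds genes outside those steps, among them the thioesterase Acot2. Mcee, Mmut, Pcca and Pccb, which turn propionyl-CoA into succinyl-CoA, stood at -0.04 to 0.11 on the log2 scale. The share and median therefore do not describe the matrix steps alone. Hsd17b10, a mitochondrial dehydrogenase of short-chain and branched-chain 3-hydroxyacyl-CoA that also belongs to mitochondrial ribonuclease P, rose by 0.57 ± 0.09 (adjusted p = 0.00627), from 114 to 118 CPM in the Chow livers to 155 to 183 CPM in the HFHC livers. Eci1, the isomerase needed for unsaturated fatty acids, rose by 0.51 ± 0.08 (adjusted p = 0.00709), and both calls held in all 6 leave-one-out fits and ended once a clock-phase index, described beside the library totals, entered the model (0.291 and 0.276). Decr1, the dienoyl-CoA reductase that also serves unsaturated chains, rose by 0.37 ± 0.08 (adjusted p = 0.0265), a call kept without HFHC replicate 1 and lost without any other library (0.0522 to 0.0978). The hydratase Echs1 (0.17 ± 0.09, adjusted p = 0.281) and the thiolase Acaa2 (0.16 ± 0.08, adjusted p = 0.275), which act between and after the dehydrogenase steps, did not pass. The count of the list was 2 without HFHC replicate 2 or Chow replicate 7, 8 or 9.

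**Figure D4:**
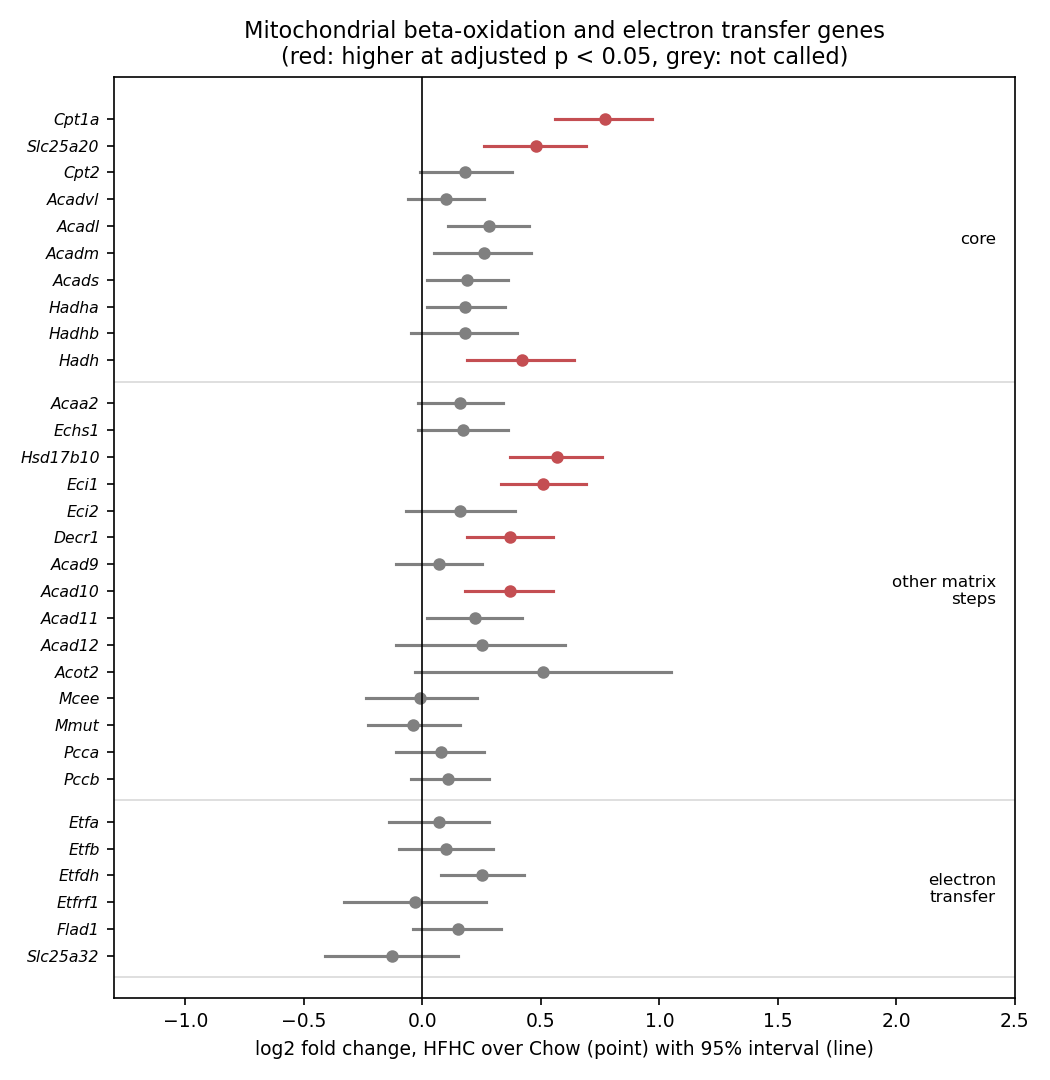
Log2 fold change, HFHC over Chow (point), with its 95% interval (line) for the 10 core genes, the other matrix list and electron transfer. The other matrix list also holds the propionyl-CoA genes Pcca, Pccb, Mcee and Mmut and the thioesterase Acot2. Red marks genes higher at an adjusted p under 0.05 and grey those not called. In the core, Cpt1a, Slc25a20 and Hadh are red, and no gene of these 3 groups is called lower.

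Electrons from the dehydrogenases pass to the respiratory chain through the flavoprotein encoded by Etfa and Etfb and its oxidoreductase Etfdh. By edgeR or DESeq2 none of the 6 genes of this list passed, and the median was 0.08. Etfdh, the only one with an unadjusted p under 0.05, had the smallest p (0.25 ± 0.08, adjusted p = 0.0887). Etfa stood at 0.07 ± 0.09 and Etfb at 0.10 ± 0.09. Other genes annotated on the same strand cover 58.2% of the Etfb exons, so the Etfb counts are uncertain.

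Fatty acid activation and carnitine supply had 2 of 14 tested genes higher and none lower (median 0.18). Crat, the carnitine acetyltransferase that buffers short-chain acyl-CoA, rose by 0.97 ± 0.14 (adjusted p = 0.00449), from 22.7, 27 and 29.3 CPM in Chow to 49.8, 61.0 and 43.7 CPM in HFHC, a call that held in all 6 leave-one-out fits and ended with the clock-phase index in the model (0.89, adjusted p = 0.217). Slc27a2, a very-long-chain acyl-CoA synthetase, rose by 0.47 ± 0.11 (adjusted p = 0.0394), a call that only the fit without HFHC replicate 1 kept among those 6 (0.0559 to 0.123 in the others) and that removing the trend on GC content and length ended (0.0642). Acsl1, the main long-chain acyl-CoA synthetase of liver, did not pass (0.34 ± 0.12, adjusted p = 0.125), and the diets overlapped. Among 5 tested genes of medium-chain and short-chain acyl-CoA synthetases, Acss3 rose (0.90 ± 0.21, adjusted p = 0.0394), and Acsm2 (-1.51 ± 0.34, adjusted p = 0.0302) and Acsm5 (-0.32 ± 0.08, adjusted p = 0.0482) fell. The Acss3 call ended without any one of Chow replicates 7 and 9 and HFHC replicates 2 and 3 (0.065 to 0.115), and with the clock-phase index its log2 fold change was 0.39 (adjusted p = 0.709). That of Acsm2 ended without any one of Chow replicates 7 and 8 and HFHC replicates 1 and 2 (0.0591 to 0.105) and with the GC and length correction (0.0596). That of Acsm5 ended in all 6 leave-one-out fits (0.0595 to 0.167) and with RLE factors (0.0512), upper-quartile factors (0.0645), no count filter (0.0688) or the 10 most abundant genes left out (0.0502).

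In malonyl-CoA control, 1 of 12 genes rose, none fell and the median was 0.02. That count was 3 with no count filter, 2 with upper-quartile factors, limma-voom or the GC and length correction or without HFHC replicate 3 or Chow replicate 8, and 0 without HFHC replicate 1 or 2 or Chow replicate 9. Acaca, the cytosolic acetyl-CoA carboxylase, rose by 0.72 ± 0.16 (adjusted p = 0.0316), and this call ended without HFHC replicate 1 (0.0951) or 2 (0.0926) or Chow replicate 7 (0.113) or 9 (0.0702). Acacb, the carboxylase at the mitochondrial surface whose malonyl-CoA is known to act on CPT1, stood at 171, 154 and 83.8 CPM in HFHC and 41.1, 65.3 and 85.3 CPM in Chow. HFHC replicate 3 lay inside the Chow range, and the difference of 1.09 ± 0.29 on the log2 scale missed the threshold (adjusted p = 0.0563). Mlycd, which degrades malonyl-CoA, stood at 0.21 ± 0.08 (adjusted p = 0.167).

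Of 19 transcriptional regulators of fatty acid oxidation 1 rose and none fell, with a median of 0.01. Ppara, the gene of PPAR alpha, rose by 0.76 ± 0.17 (adjusted p = 0.033), from 74.0, 83.5 and 83.2 CPM in Chow to 127, 178 and 103 CPM in HFHC. HFHC replicate 2 was the highest liver for Ppara as it was for Cpt1a. The Ppara call was lost without HFHC replicate 1 (0.0679) or Chow replicate 7 (0.123) or 9 (0.0814), and the count of the list was 3 without Chow replicate 8. The coactivator gene Ppargc1a stood at -0.42 ± 0.18 on the log2 scale (adjusted p = 0.201), not passing, with overlapping diets.

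Peroxisomal beta-oxidation, which shortens very-long-chain fatty acids in another organelle, had 9 of 16 tested genes higher and none lower (median 0.42), against the 3 of 10 of the core. Whether these shares differ was not tested. The peroxisomal thiolase Acaa1b rose by 1.17 ± 0.16 (adjusted p = 0.00401), and the peroxisomal transporter gene Abcd2 rose by 1.56 ± 0.25 (adjusted p = 0.00837). These calls held in all 6 leave-one-out fits and ended once a clock-phase index entered the model (0.252 and 0.328). The count of peroxisomal genes called higher was 3 without Chow replicate 7 and 5 without HFHC replicate 2.

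Mitochondrial genes outside fatty acid oxidation stayed near 0 as lists. In the citric acid cycle and pyruvate dehydrogenase list, 1 of 24 rose and 1 fell (median 0.05). Pdk1, a kinase that inhibits pyruvate dehydrogenase, rose by 0.65 ± 0.11 (adjusted p = 0.00869), also in all 6 leave-one-out fits but not with the clock-phase index (0.181). Idh2 fell by 0.43 on the log2 scale (SE 0.10, adjusted p = 0.0394), a call lost without HFHC replicate 1 (0.106) or 3 (0.0971) or Chow replicate 7 (0.0923) or 9 (0.131). By edgeR or DESeq2 none of the 16 genes for import, porins and chaperones passed, 0 had an unadjusted p under 0.05 and the median was 0.04, the smallest p being that of Hspe1 (0.20 ± 0.09, adjusted p = 0.242).

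Relatives of the straight-chain dehydrogenases break down branched-chain and other acyl-CoA. Of 12 tested genes for branched-chain and other acyl-CoA oxidation, none rose and 1 fell (median -0.06). Acadsb, the short/branched-chain acyl-CoA dehydrogenase, stood at 164, 148 and 184 CPM in HFHC and 236, 233 and 236 CPM in Chow. It fell by 0.51 on the log2 scale (SE 0.09, adjusted p = 0.0137), a call lost without HFHC replicate 1 (0.056) or Chow replicate 7 (0.0568) and with the GC and length correction (-0.35, adjusted p = 0.0574). The count of the list was 2 without HFHC replicate 3 or Chow replicate 8.

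Library totals and an index of clock phase were also set beside diet. Library totals were 30096409 to 30871297 counts in HFHC and 26767416 to 27339613 in Chow. In the index of clock phase, the mean log2 CPM of Arntl, Npas2 and Clock is taken from that of Per2, Per3 and Dbp. It was 0.46, 1.18 and 1.45 in the HFHC livers and -2.07, 0.5 and -1.53 in the Chow livers. The diets overlapped, as Chow replicate 8 lay above HFHC replicate 1, and the labels give no time of collection. With that index as a covariate none of the 10 genes passed by edgeR (3 had an unadjusted p under 0.05), nor did any gene of the lists described here, and 35 genes in the whole table were higher and 30 lower. The log2 fold change of Cpt1a was then 0.74 (adjusted p = 0.126), that of Hadh 0.49 (0.371) and that of Slc25a20 0.27 (0.537), so that of Slc25a20 was much smaller and the other 2 were close to their reported values.

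Hepatocyte markers identified the tissue as labelled, with all 10 in the table and a summed level of 98221 to 101403 CPM in HFHC and 93041 to 114523 CPM in Chow. Of these 10, Tat, Cps1 and Apob were called lower (edgeR adjusted p = 0.00673, 0.00837 and 0.0453), and that of Apob was kept only by the leave-one-out fit without Chow replicate 8 (0.0718 to 0.175 in the others), ended with upper-quartile factors (0.0625) and stood at -0.16 with the GC and length correction (adjusted p = 0.441). Kupffer cell markers summed to 282 to 341 CPM in HFHC and 236 to 280 CPM in Chow, each HFHC library above each Chow library, with none of 9 called by edgeR or DESeq2 and 4 at an unadjusted p under 0.05 by edgeR. Stellate, sinusoidal endothelial and cholangiocyte markers overlapped between the diets, and none of their 9, 9 and 6 tested genes was called by edgeR, with 1, 0 and 0 at an unadjusted p under 0.05 (the stellate marker Col1a1 passed with DESeq2, adjusted p = 0.00676, and without HFHC replicate 3, 0.0115). Adipocyte markers summed to 3.05 to 14.6 CPM in HFHC and 1.52 to 6.86 CPM in Chow. Their defining members Adipoq, Lep and Plin1 had no row to analyse here, and the only one called was Cfd, with 1 count over the 3 Chow libraries. Of 8 skeletal muscle markers only 2 had a row, Mb, without a count in any library, and Actn3. Their sum reached at most 0.0725 CPM, and Ckm and Acta1 were among those without a row. The part of these cell types in the results above was not tested.

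**Figure D5:**
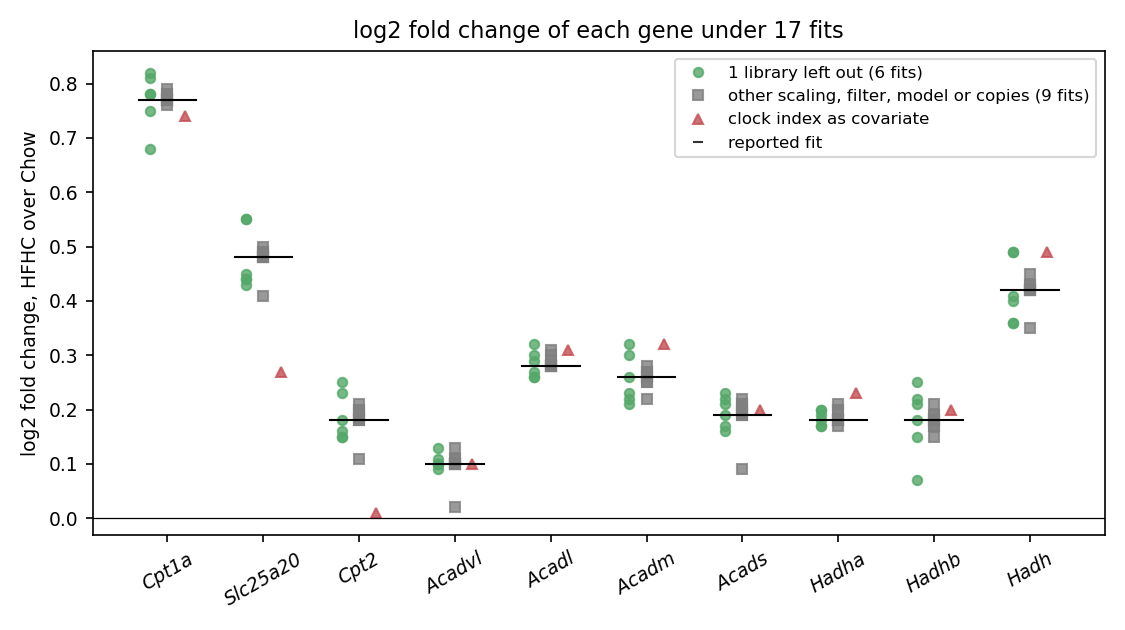
Log2 fold change, HFHC over Chow, of each of the 10 genes in the reported fit (black line) and in 16 others: each library left out (green circles), other scaling, filters, models or pseudogene copies added (grey squares) and the clock index as a covariate (red triangles). All values lie above 0, and Slc25a20 and Cpt2 have the largest drops with the clock index, to 0.27 and 0.01.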

How the data were processed

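The authors deposited expected counts for each gene, estimated from reads and without normalization, and 22.4% of values were not whole (tolerance 0.01). Per the submitters' processing notes, STAR 2.7.3a and Partek 9 were used with mm10. How reads were counted, strand included, is not given in the sources used here. Per the labels' protocols, libraries were stranded and sequenced from both ends. Of the 10 genes, 8 had values that were not whole in at least 1 library.

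Counts were rounded and filtered with filterByExpr (minimum count 10), which left 14896 of 20107 genes. They were tested over the whole table with edgeR 4.0.16 (TMM factors, quasi-likelihood F test, Benjamini-Hochberg adjustment, threshold 0.05) without covariates. Each SE was derived from the log2 fold change and its F statistic, and 95% intervals used the fit's degrees of freedom. The p values weigh the difference between the diets against the spread among replicates, moderated over all genes, and rest on these 6 samples. One count stood for 0.0318 to 0.0379 CPM. Exon lengths and coordinates came from GENCODE M21, whose gene ends lie 1 base before those of the table, and the representative transcript was the longest APPRIS principal one, else the longest coding one. Pseudogene copies were found with BLAST 2.17.0 (identity of at least 90% over at least 400 bases).

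The members and lists were chosen with earlier results of these data known. Named genes were the 10, up to 3 called genes by smallest p in each direction from each list (or the gene with the smallest p) and the 6 genes of most similar pattern. Cpt1b, Cpt1c, Echs1, Acaa2, Etfa, Etfb, Acsl1, Acacb, Mlycd, Ppargc1a, Dvl2, Gm13910 and Gm5131 were added after their values were seen. List genes without a row in the table are not analysed here. Some genes that the rule picked are not reported here. Alternatives were other size factors, filters and models (DESeq2 1.42.0, limma-voom from limma 3.58.1), the 10 most abundant genes left out, a trend on GC content and transcript length, a clock index and each library left out. The analysis was tested on simulated data. R 4.3.3, Python 3.11.15, numpy 2.4.6, pandas 2.3.3, scipy 1.17.1 and matplotlib 3.10.9 were used.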

Additional observations from a re-analysis of the deposited data

How the results depend on the processing

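All 160 log2 fold changes of the 10 genes under the 16 alternatives were above 0, and the median over all tested genes stayed between -0.008 and 0.025. The count of genes of the core called higher was 3 or 4 under other factors, filters and models, with the GC and length correction or with pseudogene copies added, an alternative chosen after seeing the data. It was 1 to 3 when a library was left out: 1 without HFHC replicate 2 or 3 or Chow replicate 7 or 9, where Cpt1a was the gene called, 2 without Chow replicate 8 and 3 without HFHC replicate 1. With the clock index as a covariate it was 0, beside 35 higher and 30 lower genes in the whole table, and 3 residual degrees of freedom were left. DESeq2 called 3 regulators of fatty acid oxidation (1 by edgeR) and 3 genes of branched-chain and other acyl-CoA oxidation (1 by edgeR). None of the core was called lower in any fit. With a library left out, 207 to 527 genes of the whole table were higher and 154 to 553 lower (503 and 491 with all 6). The difference in the log2 ratio of Hadha to Hadhb ran from -0.06 to 0.13 when a library was left out and changed sign without HFHC replicate 1 (-0.06), HFHC replicate 2 (-0.04) or Chow replicate 7 (-0.01). Leaving a library out also leaves fewer samples, and the cause was otherwise not tested. No paired analysis was possible because the diets share no replicate number.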
